A study of Mus musculus with 18 samples.

Results

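Epidermal growth factor (EGF) was added together with an adipogenic mix to C3H10T1/2 cells, a mouse fibroblast line that can become fat cells, and the mRNA was compared with that of cells given the mix alone. The comparison was defined by the array titles: the 2 arrays titled IDMB + EGF were set against the 3 arrays titled IDMB, 5 of the 18 arrays of the series. IDMB+EGF cells received 10 nM EGF for 24 h and the mix for 24 h, and IDMB cells received the mix alone. The mix held 1 µM BRL49653 (rosiglitazone, an agonist of PPARG), 1 µM dexamethasone (a glucocorticoid), 0.5 µM IBMX (a phosphodiesterase inhibitor that raises cAMP) and 10 µg/mL insulin. Neither side received TCDD. All cells were collected 24 h past confluence, having last received serum 72 h earlier, and each array carried mRNA pooled from 6 cultures of this line, so an array is 1 pool and not 1 culture. Of the other 5 groups used below, EGF cells (2 arrays) received 10 nM EGF for 24 h and UT cells (3 arrays) were read as untreated. IDMB+EGF+TCDD, IDMB+TCDD and TCDD cells (2 arrays each) also received the dioxin TCDD, which activates the aryl hydrocarbon receptor, at 10 nM for 72 h. EGF+TCDD cells (2 arrays) received EGF and TCDD at these doses and times. They entered the fit and the choice of tested probes but no comparison.

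EGF binds the receptor tyrosine kinase EGFR and activates RAS and the kinases ERK1 and ERK2, which within minutes switch on immediate-early transcription factors of the EGR and FOS families. In fibroblasts it drives cell division, and sustained ERK activity is known to phosphorylate PPARG and to oppose fat cell formation. Fat cell formation itself runs through the transcription factors PPARG and C/EBPα, which turn on genes of lipid storage.

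Values are signal intensities in the unit of the deposited tables. For tests, intensities under a floor of 143.5 were raised to it and log2 was taken, and a change is called where the limma p, adjusted over all 7134 tested probes, was under 0.05. With EGF in the mix 271 probes were called, 3.8% of those tested, and 1368 had an unadjusted p under 0.05. The calls were split evenly: 137 probes for 124 genes were higher in IDMB+EGF and 134 probes for 115 genes were lower, and the median change over all tested probes was log2 0.003. Array IDMB+EGF 1 had the widest range of the 5 arrays, with a highest intensity of 441060, against 183210 on IDMB+EGF 2 and 190480 to 256200 on the IDMB arrays. The 3′ control probe for Gapdh was brighter than the 5′ one by a ratio, a measure of RNA integrity, of 1.76 and 1.75 on the IDMB+EGF arrays, against 1.73, 1.32 and 1.19 on the IDMB arrays. In a fit that held this ratio as a covariate 189 of the 271 calls remained. Without IDMB+EGF 1 only 30 probes were called, 27 of them among the 271, and without IDMB+EGF 2 259 were called, 142 of them among the 271. All 271 kept their direction in each of the fits with 1 array left out, but they were selected on these same arrays, so this is no independent check. Of 64 genes named by a fixed rule and called, 9 lost their call when the floor was set at the 40th percentile and 13 when the Gapdh ratio was held as a covariate, and 12 were called in all 5 of those fits. They were Saa3, Acta2, Mapk6, Gpam, Apcdd1 and Rrs1 among the lower genes and Cd24a, Synpo, Plat, Fbn2, Mme and Col6a2 among the higher ones.

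**Figure D1:**
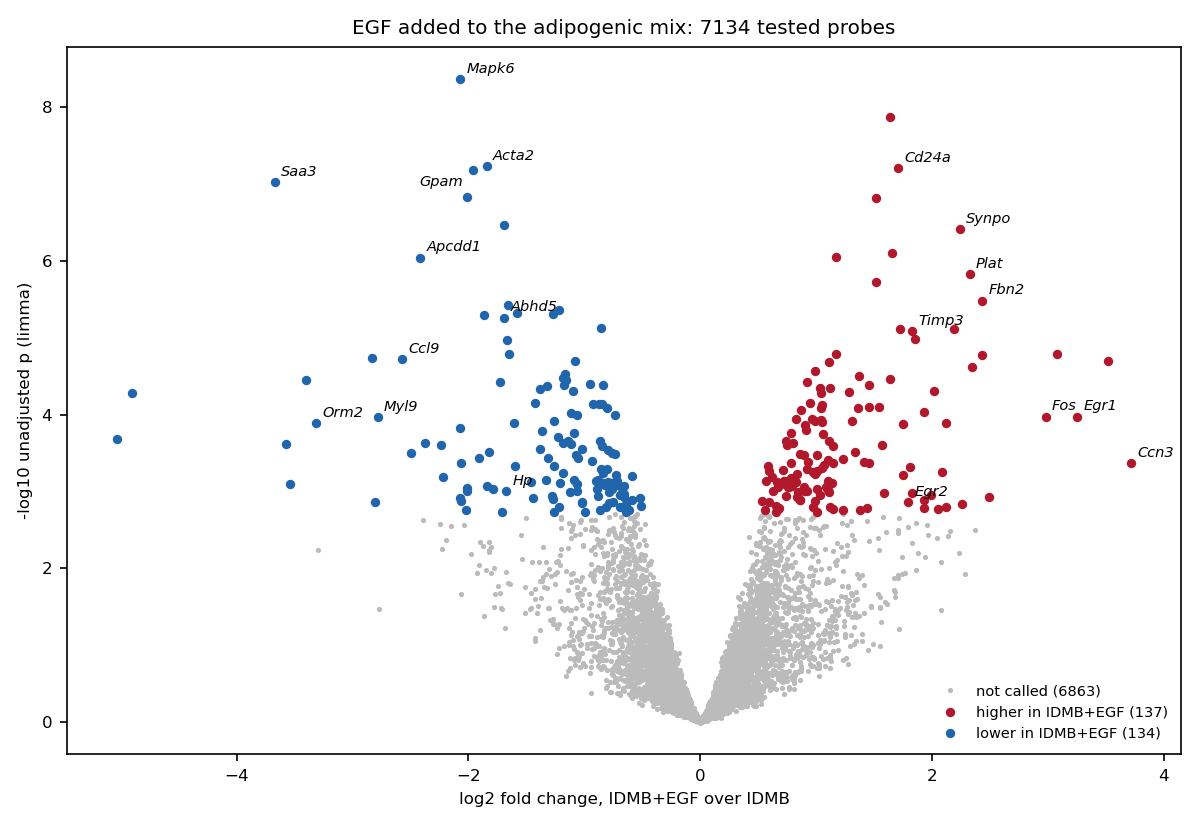
Each point is 1 of 7134 tested probes, with the log2 fold change of IDMB+EGF over IDMB on the x axis and the −log10 of the unadjusted limma p on the y axis. The 137 probes called higher are red and the 134 called lower are blue, Mapk6 has the smallest p, and the 2 leftmost points are probes with several gene symbols, which are not named.

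Of the immediate-early genes of the ERK pathway, 4 rose with EGF in the mix. Egr1, a zinc-finger factor made within minutes of ERK activation, had 11417 and 14685 on the IDMB+EGF arrays, against 1162, 1644 and 1307 on the IDMB arrays. Both IDMB+EGF arrays lay several times above every IDMB array, and Egr1 rose 9.54-fold (log2 3.25, SE 0.64, adjusted p = 0.00973). Fos, a partner of JUN in the AP-1 dimer, had 716 and 2665 on the IDMB+EGF arrays, against 139.6, 259 and 82 on the IDMB arrays. The groups did not overlap, but 2 of the 3 IDMB arrays were under the floor and IDMB+EGF 2 was far above IDMB+EGF 1, with a rise of 7.91-fold (log2 2.98, SE 0.58, adjusted p = 0.00973). With the floor at the 40th percentile the change was log2 1.48 and the call was lost (adjusted p = 0.066). Egr2, a relative of Egr1, had 1564 and 4009.7 on the IDMB+EGF arrays, against 677, 997 and 559 on the IDMB arrays (log2 1.79, SE 0.46, adjusted p = 0.041). Ier2, a nuclear immediate-early protein, had 5674 and 11255 on the IDMB+EGF arrays, against 1742, 3342 and 3255 on the IDMB arrays (log2 1.58, SE 0.40, adjusted p = 0.0348). For these 2 genes the order was the same as for Fos: IDMB+EGF 2 was the brightest array, IDMB+EGF 1 the next, and all IDMB arrays were lower. Of the 15 tested members of a list of ERK-induced early transcription factors, 4 rose and 0 fell (1.92% of all probes were called higher), and the list's median was log2 0.23. This list and those below were chosen with earlier results of these data known. Their counts beside the share of all probes are therefore a description and not a test. Nr4a1, an orphan nuclear receptor, stood at log2 1.71 (adjusted p = 0.13), while Jun (0.50), Junb (0.46), Myc (-0.50) and Atf3 (-0.78) were not called. The call of Egr1 was lost without either IDMB+EGF array (log2 3.07 to 3.44, adjusted p up to 0.0777). The call of Fos was lost without IDMB+EGF 2 (log2 2.04 to 3.93, up to 0.106). Egr2 was called neither in a fit with 1 array left out (log2 1.11 to 2.47, up to 0.265) nor with the Gapdh ratio as covariate (0.0525), and Ier2 only in the one without IDMB 3 (1.09 to 2.08, up to 0.217).

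The genomic stretch in front of Egr2 shows a known element of such genes, the CArG box bound by serum response factor, and is printed for that reason. It is taken from the RefSeq promoter table (build GRCm38.p6), covers the 200 bases before the start site at chr10:67537366-67537565 on the plus strand, and has the match in capitals, beginning 72 bases before the start.
Egr2: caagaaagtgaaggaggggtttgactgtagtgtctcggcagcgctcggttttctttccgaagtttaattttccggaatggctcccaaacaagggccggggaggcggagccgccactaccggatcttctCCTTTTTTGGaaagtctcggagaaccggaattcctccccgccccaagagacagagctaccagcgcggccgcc
The motif was searched on both strands of the 250 bases before each start, and 4 of the 5 promoters listed for Egr2 held it, against 1.47% of 32851 promoters. The window of Fos had no match, which does not exclude a site outside the window or one with other letters. Egr1 and Ier2 were not searched. A match describes letters and not binding.

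Feedback regulators of ERK, which dampen the signal, did not pass the test with the mix: 0 of 7 tested members were called, against 3.8% of all probes, with a median of log2 0.19. At that share 0 calls in a list of 7 do not show that the list was unchanged. Dusp6, the phosphatase that removes phosphate from ERK, had 1080.5 and 2088 on the IDMB+EGF arrays, against 552, 302 and 418 on the IDMB arrays. The groups did not overlap, but its change missed the threshold (log2 1.87, SE 0.52, adjusted p = 0.0578). Errfi1, an inhibitor of EGFR itself, had 29028 and 47736 on the IDMB+EGF arrays, against 28266, 27031 and 33993 on the IDMB arrays, and the groups overlapped (log2 0.33, adjusted p = 0.389). Egfr was at log2 0.69 (adjusted p = 0.0831) and the ligand gene Hbegf at -0.55 (0.441). Of 7 tested genes for receptors of this family, their ligands and adaptors 0 were called, against the same 3.8% of all probes, and the same limit applies.

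**Figure D2:**
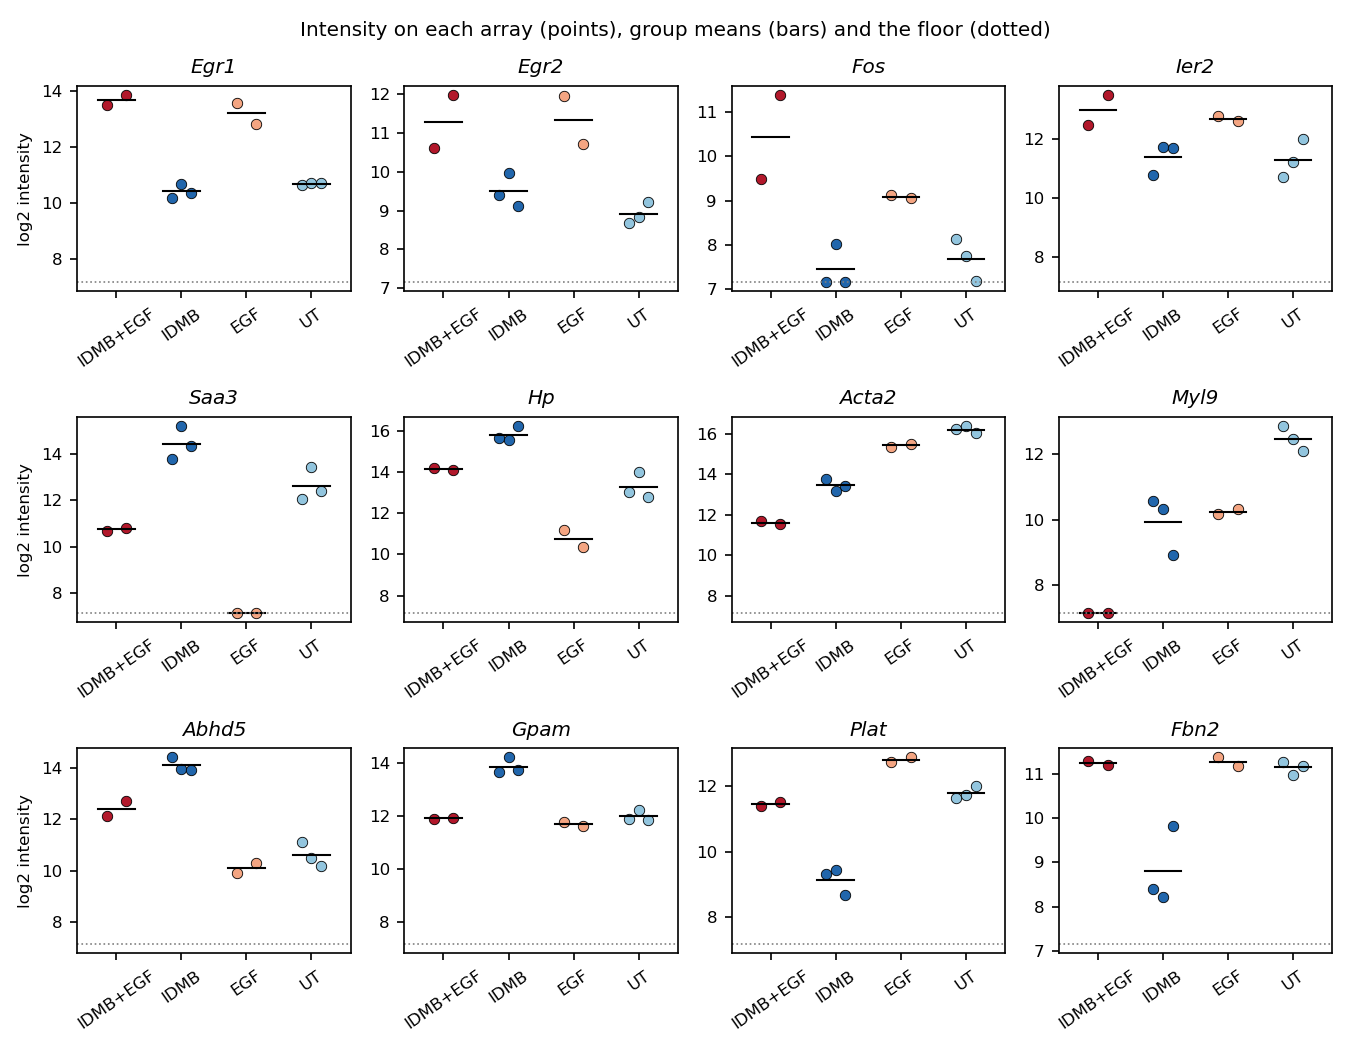
Log2 intensity of 12 genes on each array of 4 groups (points; IDMB+EGF and EGF n = 2, IDMB and UT n = 3), with the group mean as a bar and the floor as a dotted line. Egr1, Egr2, Fos and Ier2 are higher with EGF, Saa3, Hp, Acta2, Myl9, Abhd5 and Gpam are lower in IDMB+EGF than in IDMB, and Plat and Fbn2 are higher.

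Genes of mitosis all lay above 0 with EGF in the mix, yet none passed the test. Of 36 tested genes of G2 and mitosis, 36 had a positive change, with a median of log2 0.93, against a median of 0.003 over all probes, and limma called 0 of them. In the fits with 1 array left out 34 to 36 were positive. In 30 of the 36 both IDMB+EGF arrays lay above all 3 IDMB arrays (16.1% of all tested probes did so). Mki67, a marker of cycling cells, had 9644 and 13411 on the IDMB+EGF arrays, against 5736, 2752 and 2871 on the IDMB arrays (log2 1.67, SE 0.64, adjusted p = 0.166). Cdk1, the kinase that starts mitosis, had 19122 and 18509 on the IDMB+EGF arrays, against 10195, 6342 and 8022 on the IDMB arrays (log2 1.23, SE 0.46, adjusted p = 0.154). Top2a, a topoisomerase of dividing cells, had 7908 and 8583 on the IDMB+EGF arrays, against 5115, 2723 and 3841 on the IDMB arrays (log2 1.13, SE 0.53, adjusted p = 0.253). In all 3 genes IDMB 1 was the highest of the IDMB arrays and the groups did not overlap. Among 30 tested genes of DNA replication, 25 lay above 0 with a median of log2 0.40, and 0 were called. Mcm5, a subunit of the replicative helicase, stood at log2 1.11 (adjusted p = 0.116). Pcna, the sliding clamp (-0.15), and Rrm2, a subunit of ribonucleotide reductase (-0.05), overlapped between the groups. The D cyclins and CDK inhibitors had 0 called of 10, with Ccnd1 at -0.09 and Cdkn1a at -0.16. With 3.8% of all probes called in either direction, 0 of 10 does not show an absence of response.

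Genes of lipid droplets and lipolysis were among the falls. Abhd5, the coactivator of fat triglyceride lipase, had 4478 and 6629 on the IDMB+EGF arrays, against 21760, 16013 and 15634 on the IDMB arrays, and fell 3.23-fold (log2 -1.69, SE 0.25, adjusted p = 0.00177). Pnpla2, that lipase itself, had 8356 and 10791 on the IDMB+EGF arrays, against 24280, 23943 and 20749 on the IDMB arrays (log2 -1.27, SE 0.19, adjusted p = 0.00173). Plin2, a coat protein of lipid droplets, had 37424 and 45781 on the IDMB+EGF arrays, against 61174, 90973 and 81397 on the IDMB arrays (log2 -0.89, SE 0.22, adjusted p = 0.0331). In each of the 3 the groups did not overlap, and both IDMB+EGF arrays stayed above the UT arrays. The UT arrays were at 2208, 1466 and 1177 for Abhd5, 2729, 2429 and 2884 for Pnpla2 and 10551, 19133 and 16950 for Plin2. Ephx2, the soluble epoxide hydrolase, had 1226 and 1156 on the IDMB+EGF arrays, against 3825, 7698 and 3786 on the IDMB arrays (log2 -2.02, SE 0.50, adjusted p = 0.0327). Gpam, the mitochondrial acyltransferase that begins triglyceride synthesis, had 3769 and 3931 on the IDMB+EGF arrays, against 12913, 19067 and 13633 on the IDMB arrays, a fall of 3.89-fold (log2 -1.96, SE 0.21, adjusted p = 9.28e-05) to the range of the UT arrays (3769, 4808 and 3707). Srebf1, the transcription factor of fatty acid synthesis genes, had 8296 and 9112 on the IDMB+EGF arrays, against 12368, 13161 and 13830 on the IDMB arrays, a smaller fall (log2 -0.59, SE 0.14, adjusted p = 0.0284). Of 17 tested adipocyte and PPARG target genes 4 fell (1.88% of all probes were called lower) and 1 rose, and the median was log2 −0.56. The one that rose was Cd24a, a glycoprotein of preadipocytes and other progenitors, with 7005 and 6977 on the IDMB+EGF arrays, against 2217, 1984 and 2226 on the IDMB arrays and no overlap (log2 1.71, SE 0.18, adjusted p = 9.28e-05). The call of Pnpla2 was lost without IDMB+EGF 1 (adjusted p = 0.0604), as was that of Abhd5 (0.0616). The calls of Plin2 (up to 0.251), Ephx2 (up to 0.183) and Srebf1 (up to 0.208) were lost without any of 4 of the 5 arrays. With the Gapdh ratio as covariate the calls of Plin2 (adjusted p = 0.0933), Ephx2 (0.0878) and Srebf1 (0.0574) were lost and those of Pnpla2 (0.00737) and Abhd5 (0.001) remained.

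The adipogenic regulators Pparg and Cebpa and the fat cell genes Adipoq, Lpl and Fabp4 were not called. Pparg had 1232 and 1702 on the IDMB+EGF arrays, against 4099.5, 2624 and 2273 on the IDMB arrays. Its groups did not overlap, but the ratio of 0.499 (log2 SE 0.38) had an adjusted p of 0.161. Cebpa was at log2 0.23 (adjusted p = 0.824), with the IDMB arrays spread on both sides of the IDMB+EGF arrays. Adipoq, which encodes the hormone adiponectin, had 542 and 624 on the IDMB+EGF arrays, against 1589.5, 1593 and 1378 on the IDMB arrays (log2 -1.38, SE 0.51, adjusted p = 0.143). Lpl, lipoprotein lipase, was at -1.22 (0.377), and Fabp4, a fatty acid carrier, was at -0.26 (0.766) with overlap. Of 14 tested adipogenic transcription factors, Srebf1 was the only one called (1.88% of all probes were called lower). Fatty acid synthesis genes had 1 of 10 lower (Gpam), against the same 1.88% of all probes. Fasn, the fatty acid synthase, was at 0.03 and Scd1, a desaturase, at -1.11 (0.145). Of 11 cholesterol synthesis genes limma called 0, against 3.8% of all probes called in either direction, so this count does not show an absence of response.

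Saa3, a secreted acute-phase protein, fell furthest among genes with 1 symbol on their probe. This serum amyloid, which fat cells and fibroblasts secrete in inflammation, had 1646 and 1802 on the IDMB+EGF arrays, against 14100, 36809 and 20342 on the IDMB arrays. Every IDMB array was several times as bright as either IDMB+EGF array, and Saa3 fell 12.7-fold (log2 -3.67, SE 0.40, adjusted p = 0.000113), with log2 -3.99 to -3.30 in the fits with 1 array left out. Dlg3 came close (log2 -3.58) with IDMB+EGF 1 under the floor, so the rank of Saa3 depends on the floor. With the Gapdh ratio as covariate Dlg3 was at log2 -3.85 and Saa3 at -3.50. Hp, haptoglobin, had 18881 and 17318 on the IDMB+EGF arrays, against 52184, 48046 and 76324 on the IDMB arrays (log2 -1.67, SE 0.42, adjusted p = 0.034). Orm2, an orosomucoid whose gene has close copies that a probe may not separate, had 119 and 816 on the IDMB+EGF arrays, against 2353, 4509.8 and 3736 on the IDMB arrays (log2 -3.32, SE 0.66, adjusted p = 0.0103). The groups did not overlap in either gene, and for Orm2 IDMB+EGF 1 was under the floor while IDMB+EGF 2 was not. Lcn2, lipocalin 2, was at log2 -0.73 (0.28) with overlap. Of 10 tested genes of a list of acute-phase and innate secreted proteins, which does not hold Orm2, 2 fell (1.88% of all probes were called lower) and 0 rose, with a median of log2 −0.79. Hp was not called with the Gapdh ratio as covariate (adjusted p = 0.097) or in any of the fits with 1 array left out (-1.80 to -1.47, adjusted p up to 0.173), and Orm2 was not called without IDMB+EGF 1 or without IDMB 2 (-4.57 to -2.06, up to 0.189).

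The stretches before Saa3 and Orm2 are printed because both hold TTGCNNAA, letters found in binding sites of the C/EBP factors, which drive acute-phase genes. The 200 bases before each start site were taken from RefSeq (GRCm38.p6), at chr7:46715677-46715876 on the minus strand and at chr4:63362249-63362448 on the plus strand, and the capitals mark the match. The match begins 99 bases before the start of Saa3, where it reads on the opposite strand, and 120 bases before that of Orm2.
Saa3: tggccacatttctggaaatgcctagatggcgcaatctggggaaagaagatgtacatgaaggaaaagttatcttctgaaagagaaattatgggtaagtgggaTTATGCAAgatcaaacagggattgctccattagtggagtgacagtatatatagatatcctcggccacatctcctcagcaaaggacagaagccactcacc
Orm2: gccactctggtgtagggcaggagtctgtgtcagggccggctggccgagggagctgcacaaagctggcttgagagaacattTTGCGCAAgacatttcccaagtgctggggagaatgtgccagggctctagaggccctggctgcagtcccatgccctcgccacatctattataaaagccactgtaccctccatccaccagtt
These letters occurred on either strand in 9.56% of 32851 promoters, so that a match is common.

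Among chemokines and inflammatory genes 1 of 13 rose and 1 fell, against 1.92% and 1.88% of all probes. Ccl9, a chemokine of myeloid cells, had 8624 and 8610.5 on the IDMB+EGF arrays, against 31144, 79990 and 53971 on the IDMB arrays (log2 -2.57, SE 0.43, adjusted p = 0.00396). Il1rn, the antagonist of the interleukin-1 receptor, had 123510 and 79572 on the IDMB+EGF arrays, against 23645, 17715 and 60650 on the IDMB arrays (log2 1.75, SE 0.41, adjusted p = 0.0274). Neither gene overlapped between the groups, although IDMB 3 came near IDMB+EGF 2 for Il1rn. Cxcl12, a chemokine made by stromal cells, was at log2 0.76 (0.0542), Ccl2 at -0.17 and Cxcl1 at 0.01. Of 18 interferon-induced genes only Ifit2, an antiviral RNA-binding protein, was called (log2 1.93, SE 0.51, adjusted p = 0.046), against 1.92% of all probes called higher. It had 562 and 864 on the IDMB+EGF arrays, against 298, 70.2 and 49.8 on the IDMB arrays, with 2 of the 3 IDMB arrays under the floor, and was called in 2 of 9 other settings, with log2 0.49 for the floor at the 40th percentile. Of the same list, Isg15 (-0.75) and Ifit1 (0.78) were not. The call of Ccl9 was lost without IDMB+EGF 1 (adjusted p = 0.0616). That of Il1rn was lost without IDMB+EGF 1, IDMB 1 or IDMB 2 (up to 0.24), and that of Ifit2 was lost without any array but IDMB 1 (up to 0.182).

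Among smooth muscle contractile genes Acta2 and Myl9 fell. Acta2, smooth muscle actin, had 3287 and 2999.9 on the IDMB+EGF arrays, against 14034, 9113 and 11129 on the IDMB arrays. The IDMB+EGF arrays lay close together below all IDMB arrays, and Acta2 fell 3.58-fold (log2 -1.84, SE 0.19, adjusted p = 9.28e-05). The mix alone already held Acta2 far under the UT arrays, at 76660, 84662 and 67138. Myl9, the regulatory light chain of smooth muscle myosin, had 76.1 and 84.4 on the IDMB+EGF arrays, against 1537, 1282 and 488 on the IDMB arrays. Both IDMB+EGF arrays were under the floor and all IDMB arrays above it, so the fall was at least 6.88-fold (log2 -2.78, SE 0.55, adjusted p = 0.0098), and it was not called without IDMB+EGF 1 (adjusted p = 0.0908) or with the floor at the 40th percentile (adjusted p = 0.199). Tagln, an actin-binding protein of the same cells, had 646 and 492 on the IDMB+EGF arrays, against 2504, 1039 and 723 on the IDMB arrays, without overlap and without a call (log2 -1.13, adjusted p = 0.285). Of 16 tested contractile genes 2 fell (1.88% of all probes were called lower) and 0 rose, with a median of log2 −0.24. The stretch before Myl9 (chr2:156775264-156775463, plus strand, RefSeq GRCm38.p6) is shown because it holds a CArG box, in capitals, beginning 161 bases before the start site. The window of Acta2 had no match, which does not exclude a site outside the window or one with other letters.
Myl9: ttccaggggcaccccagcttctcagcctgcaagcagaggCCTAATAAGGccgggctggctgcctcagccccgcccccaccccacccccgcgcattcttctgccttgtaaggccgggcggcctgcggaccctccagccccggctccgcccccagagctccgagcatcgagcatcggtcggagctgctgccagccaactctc

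Matrix genes moved in both directions, with 5 of 39 higher and 2 lower, against 1.92% and 1.88% of all probes, and a median of log2 0.22. Col6a2, a chain of collagen VI, had 58667 and 44778 on the IDMB+EGF arrays, against 15992, 14965 and 24013 on the IDMB arrays, and rose 2.86-fold (log2 1.52, SE 0.21, adjusted p = 0.000904). Its partner chain Col6a1 rose less (log2 0.75, SE 0.18, adjusted p = 0.031), and a second probe for it was not called (log2 0.50, adjusted p = 0.129). Col11a1, a fibrillar collagen chain (log2 1.83, SE 0.46, adjusted p = 0.0347), Nid2, a basement membrane linker (log2 1.05, SE 0.24, adjusted p = 0.0247), and Ccn5, a matricellular protein (log2 1.36, SE 0.26, adjusted p = 0.00829), also rose. Lox, the enzyme that crosslinks collagen and elastin, had 14969 and 14176 on the IDMB+EGF arrays, against 35056, 25453 and 33629 on the IDMB arrays and fell (log2 -1.09, SE 0.20, adjusted p = 0.00613). A second probe for Lox was not called (log2 -1.40, adjusted p = 0.204). Lamb1, a laminin chain, fell as well (log2 -1.21, SE 0.29, adjusted p = 0.031). The main fibroblast collagens Col1a1 (0.28) and Col3a1 (0.63) were not called. The calls of Ccn5 (adjusted p = 0.163) and Lox (0.0658) were lost without IDMB+EGF 1. Those of Col6a1 (up to 0.29), Col11a1 (0.164), Nid2 (0.11) and Lamb1 (0.129) were lost without any of 4 of the 5 arrays.

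Of 11 tested proteolysis genes 2 rose (1.92% of all probes were called higher) and 0 fell. Plat, tissue plasminogen activator, had 2718 and 2949 on the IDMB+EGF arrays, against 631, 695 and 409 on the IDMB arrays. The groups did not overlap, and the 5.02-fold rise (log2 2.33, SE 0.31, adjusted p = 0.000754) brought Plat back to just below the UT arrays, at 3188, 3419 and 4134. Timp3, a matrix-bound inhibitor of metalloproteinases, had 36696 and 25301 on the IDMB+EGF arrays, against 5428, 7872 and 14722 on the IDMB arrays (log2 1.83, SE 0.28, adjusted p = 0.00223), with IDMB 3 above the other IDMB arrays. Timp1 was at 0.05, and 9 of the 11 tested genes of this group were not called. Mme, the cell-surface peptidase neprilysin, had 2550.2 and 3429 on the IDMB+EGF arrays, against 767, 461 and 769 on the IDMB arrays (log2 2.19, SE 0.34, adjusted p = 0.0022), without overlap. Timp3 was not called without IDMB+EGF 1 (adjusted p = 0.0658).

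**Figure D3:**
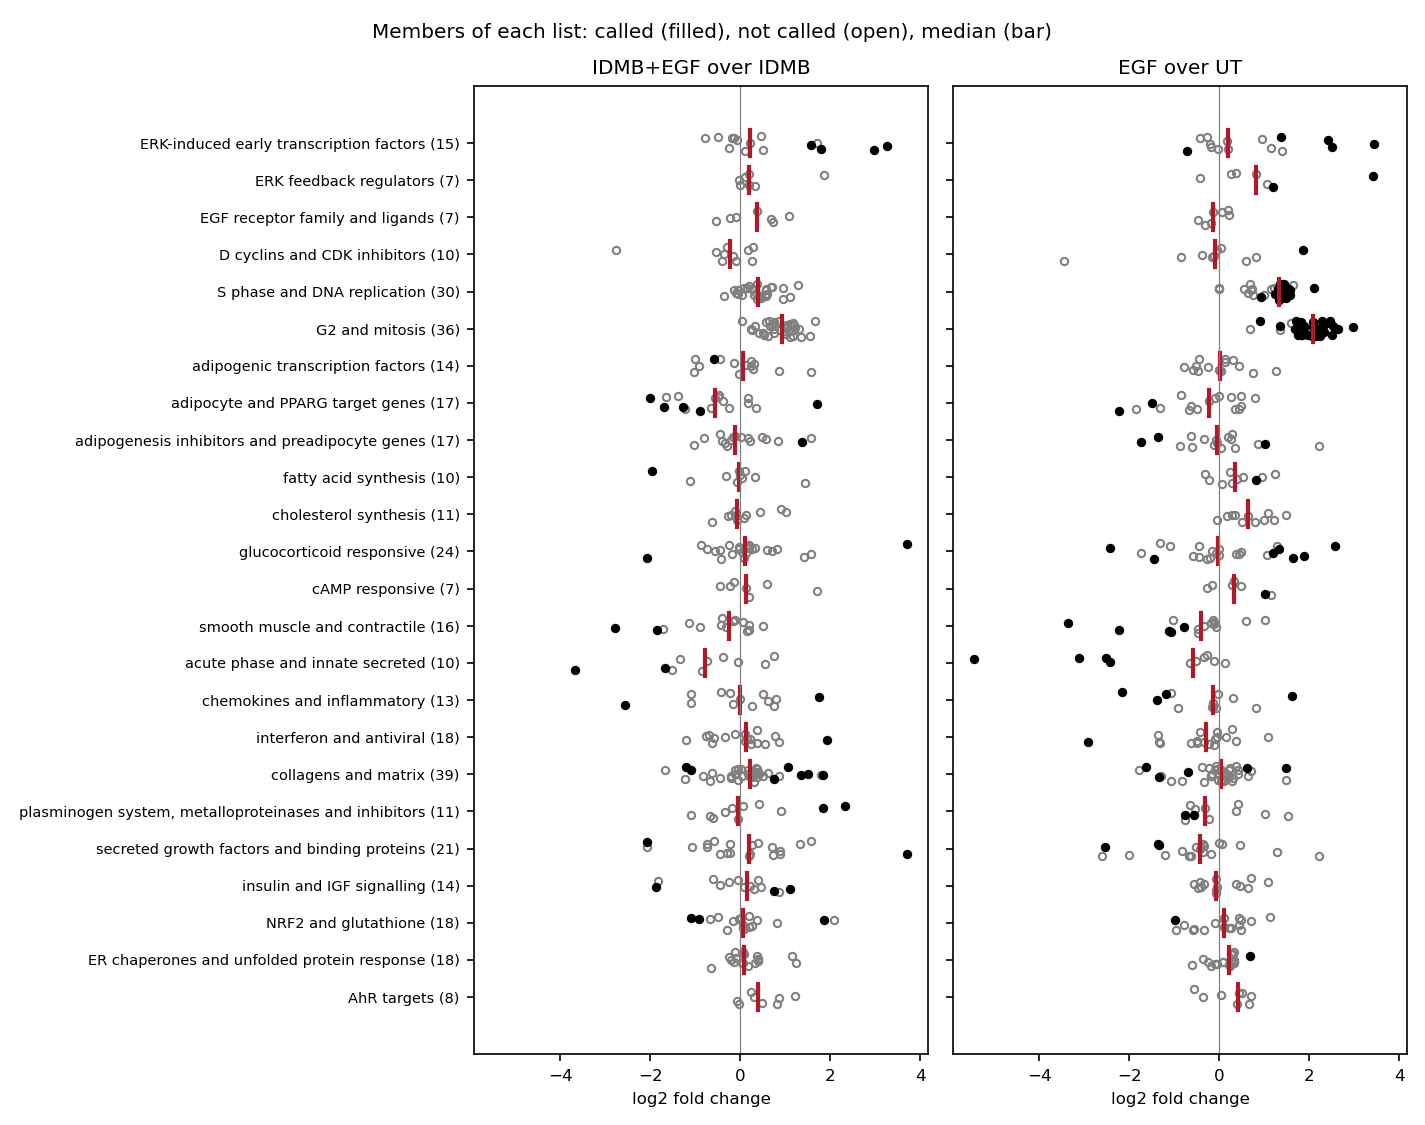
Log2 fold change of each tested gene in 24 lists (number tested in brackets) for IDMB+EGF over IDMB (left) and EGF over UT (right), with called genes filled, others open and the median as a red bar. The 36 genes of G2 and mitosis all lie right of 0 in both panels, with 0 called on the left and 31 on the right (0 without EGF 2).

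Growth factor, insulin and antioxidant genes gave a few calls in both directions. Of 21 tested growth factor and binding protein genes 1 rose and 1 fell. Of 14 insulin and IGF signalling genes 2 rose and 1 fell, and of 18 NRF2 and glutathione genes 1 rose and 2 fell. Of all probes 1.92% were called higher and 1.88% lower. Ccn3, a matricellular growth regulator, had 19004 and 9760.1 on the IDMB+EGF arrays, against 635, 322 and 5427 on the IDMB arrays, the largest rise among genes with 1 symbol (13.2-fold, log2 3.72, SE 0.84, adjusted p = 0.0219). IDMB 3 lay far above the other IDMB arrays, and the call was lost without IDMB+EGF 1, IDMB 1 or IDMB 2 (2.87 to 4.91, adjusted p up to 0.207). Igfbp3, a carrier of insulin-like growth factors, had 458 and 751 on the IDMB+EGF arrays, against 4284, 1847 and 1871 on the IDMB arrays (log2 -2.06, SE 0.53, adjusted p = 0.04). It passed the filter only through the IDMB group, where it is high, and was called neither in a fit with 1 array left out (up to 0.293) nor with the Gapdh ratio as covariate (0.0639). In the insulin list Hk2, the hexokinase that insulin induces, fell (log2 -1.87, SE 0.28, adjusted p = 0.00173), while Ptpn1, the phosphatase of the insulin receptor (log2 1.11, SE 0.23, adjusted p = 0.0154), and the transcription factor Foxo3 (log2 0.74, SE 0.19, adjusted p = 0.0372) rose. Hmox1, heme oxygenase (log2 -1.09, SE 0.22, adjusted p = 0.0128), and Txnrd1, thioredoxin reductase (log2 -0.92, SE 0.17, adjusted p = 0.00805), fell, and Sod3, the extracellular superoxide dismutase (log2 1.85, SE 0.29, adjusted p = 0.0027), rose, out of 18 tested NRF2 and glutathione genes. Pdgfrb, a receptor of mesenchymal cells, rose (log2 1.37, SE 0.24, adjusted p = 0.00552). Calls were lost without IDMB+EGF 1 for Hk2 (adjusted p = 0.0601), Sod3 (0.0663) and Pdgfrb (0.107), and without more than 1 of the arrays in turn for Ptpn1 (up to 0.0954), Foxo3 (0.188, also 0.0869 with the Gapdh covariate), Hmox1 (0.12) and Txnrd1 (0.0622).

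Of 24 tested glucocorticoid-responsive genes 1 was called higher (Ccn3) and 1 lower (Igfbp3), against 1.92% and 1.88% of all probes. Fkbp5, the co-chaperone of the glucocorticoid receptor, had 13161 and 12205 on the IDMB+EGF arrays, against 13338, 9902 and 10312 on the IDMB arrays, with overlap (log2 0.19, adjusted p = 0.805). None of 7 cAMP-responsive genes was called by limma, and Rgs2, a regulator of G-protein signalling that cAMP induces, stood at log2 0.20. Counts were likewise 0 of 18 for ER chaperones and the unfolded protein response and 0 of 8 for targets of the aryl hydrocarbon receptor. Of all probes 3.8% were called in either direction, so 0 calls in lists of these sizes do not show an absence of response.

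Further genes with large changes fell outside these groups. Among the rises, Fbn2, a fibrillin of elastic microfibrils, had 2516 and 2336 on the IDMB+EGF arrays, against 337, 298 and 899 on the IDMB arrays, and rose 5.41-fold (log2 2.44, SE 0.35, adjusted p = 0.00146). The UT arrays were at 2469, 2017 and 2322, the same range as with EGF. Synpo, the actin-associated protein synaptopodin, had 4380.5 and 4448 on the IDMB+EGF arrays, against 805, 804 and 1262 on the IDMB arrays (log2 2.24, SE 0.27, adjusted p = 0.000276), without overlap. Cacna1g, a T-type calcium channel (log2 3.52, SE 0.59, adjusted p = 0.00396), Pea15a, a cytoplasmic anchor of ERK (log2 3.08, SE 0.51, adjusted p = 0.00369), and Gp1bb, a platelet adhesion glycoprotein chain (log2 2.35, SE 0.40, adjusted p = 0.00453), also rose. So did Ppp2r5d, a subunit of phosphatase 2A (log2 2.50, adjusted p = 0.0372), D17H6S56E-5 (log2 2.26, adjusted p = 0.0427), Avpi1 (log2 2.12, adjusted p = 0.0103), Tmem176a (log2 2.09, adjusted p = 0.0264) and Pip, prolactin-induced protein (log2 2.06, adjusted p = 0.0468), which passed the filter only through the IDMB+EGF group, where it is high. For Gp1bb the IDMB arrays were at 155.1, 118.9 and 176.5, around the floor, and with the floor at the 40th percentile the change was log2 0.69 and not called (adjusted p = 0.266). With the Gapdh ratio as covariate the calls of Ppp2r5d (adjusted p = 0.0947), D17H6S56E-5 (0.0639) and Pip (0.116) were lost. Calls were lost without IDMB+EGF 1 for Cacna1g (log2 2.96 to 4.17 over the fits with 1 array left out), Pea15a, Gp1bb and Avpi1 (1.65 to 2.70). They were lost without several arrays in turn for Ppp2r5d (1.87 to 3.15), D17H6S56E-5, Tmem176a (1.66 to 2.77) and Pip, with adjusted p up to 0.326 for Ppp2r5d.

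Among the falls, Mapk6, the atypical MAP kinase ERK3, had 3044 and 4382 on the IDMB+EGF arrays, against 15836, 18317 and 12517 on the IDMB arrays. The groups were far apart, and the fall of 4.21-fold (log2 -2.07, SE 0.18, adjusted p = 3.06e-05) had the smallest p of all tested probes. Apcdd1, a membrane inhibitor of WNT signalling, had 1351 and 1724 on the IDMB+EGF arrays, against 5285, 12395 and 8214 on the IDMB arrays (log2 -2.41, SE 0.31, adjusted p = 0.000495), without overlap. Gpr137b, a lysosomal membrane protein (log2 -3.40, SE 0.60, adjusted p = 0.00559), fell together with the probe for its pseudogene Gpr137b-ps (log2 -2.83, adjusted p = 0.0039), and the 2 probes may not separate these transcripts. Adam19, a metalloproteinase (log2 -2.49, adjusted p = 0.0188), Cavin2, a coat protein of caveolae (log2 -2.80, adjusted p = 0.041), Slc20a1, a phosphate transporter (log2 -2.22, adjusted p = 0.0288), and Ifrd1 (log2 -2.07, adjusted p = 0.0115) also fell. Dlg3, a membrane scaffold, had 92.1 and 189.5 on the IDMB+EGF arrays, against 2747, 1417 and 1949 on the IDMB arrays (log2 -3.58, adjusted p = 0.0161). Azi2 (log2 -2.24, adjusted p = 0.0162) and Upk2 (log2 -2.07, adjusted p = 0.0384) were also called lower, and these 3 probes passed the filter only through the IDMB group, where they are high. IDMB+EGF 1 was under the floor for Dlg3, Adam19, Azi2 and Slc20a1, so their values depend on the floor. With the floor at the 40th percentile the calls of Cavin2 (log2 -2.44, adjusted p = 0.0592), Azi2 (-0.79, 0.104), Slc20a1 (-1.10, 0.122) and Upk2 (-0.98, 0.0746) were lost, and Dlg3 was at log2 -1.99 (0.0152) and Adam19 at -1.60 (0.0208). Upk2 was not called with the Gapdh covariate either (0.0836). Leaving out IDMB+EGF 1 ended the calls of Gpr137b (log2 -4.04 to -3.05 over the fits with 1 array left out), Gpr137b-ps, Dlg3 and Ifrd1 (-2.76 to -1.38). More than 1 array in turn did so for Adam19 (-3.44 to -1.55), Cavin2 (-3.82 to -1.85), Azi2, Slc20a1 (-2.89 to -1.56) and Upk2.

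The same EGF dose without the mix gave 440 calls (6.17%), on arrays that the comparison above does not use. The count was 14 without EGF 2 and 189 with the Gapdh ratio as covariate. That ratio was 1.43 and 2.47 on the EGF arrays, against 1.52, 1.45 and 1.25 on the UT arrays. The EGF effects with and without the mix came from the same fit with the same variance estimate of each probe, so their calls were not independent. Of the 137 probes called higher in the mix, 22 were also called higher with EGF alone, 16.1% of the 137 and 8.59% of the 256 higher calls without the mix, and 120 had the same sign, with a median of log2 0.45. Of the 134 called lower, 21 were also called lower, 15.7% of the 134 and 11.4% of the 184 lower calls, and 102 had the same sign. Egr1 had 12195 and 7245 on the EGF arrays, against 1579.7, 1670.2 and 1681 on the UT arrays (log2 2.52, SE 0.64, adjusted p = 0.0293), and Saa3 had 38.1 and 85.9 on the EGF arrays, against 4191, 11059 and 5354 on the UT arrays, where both EGF arrays were under the floor. In the mitosis list 31 of 36 genes rose with EGF alone (3.59% of all probes were called higher there and 2.58% lower), with a median of log2 2.08, and in the replication list 17 of 30, with a median of 1.34. These counts rested on single arrays: the mitosis list had 0 calls without EGF 2, 1 without EGF 1, 1 without UT 2 and 3 with the Gapdh covariate, and the replication list 0, 6, 4 and 5. In each of these fits all 36 mitosis genes stayed above 0, with medians of log2 1.81 to 2.07. A test of the difference between the 2 EGF effects called 0 genes of either list (limma), while 35 of 36 mitosis genes and 27 of 30 replication genes had the smaller value in the mix, with medians of the difference of log2 −1.13 and −0.83, against −0.008 over all probes.

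The difference itself was called for 18 probes (0.252%). Fosl1, the AP-1 partner Fra-1, had 2701 and 3043 on the IDMB+EGF arrays, against 2110.5, 2895 and 3111 on the IDMB arrays, and 3217 and 2791 on the EGF arrays, against 428, 155 and 318 on the UT arrays. It rose with EGF alone and was not called in the mix (difference -3.33, SE 0.57, adjusted p = 0.0196), and the IDMB arrays overlapped the EGF arrays in level. Mapk6 fell in the mix and was at log2 0.10 without it (difference -2.17, SE 0.26, adjusted p = 0.00196). Gpam did likewise (-0.31 without it, difference -1.65, SE 0.30, adjusted p = 0.0223). Orc2, a subunit of the origin recognition complex, had 185 and 144 on the IDMB+EGF arrays, against 723, 611 and 715 on the IDMB arrays, and the UT arrays were at 122, 164 and 139.6, near or under the floor. It was called lower in the mix (log2 -2.06) and stood at 1.91 without it (difference -3.97, SE 0.66, adjusted p = 0.0196), values that depend on the floor. With the floor at the 40th percentile the change in the mix was log2 -0.46 (adjusted p = 0.391) and the difference -0.84 (0.367), and with the Gapdh covariate the call in the mix was lost (0.0646). Ccn5 went the other way: it rose in the mix and fell with EGF alone (log2 -1.34, SE 0.26, adjusted p = 0.00836, difference 2.70, SE 0.37, adjusted p = 0.00565). Cxcl12 (difference 1.95, SE 0.30, adjusted p = 0.015), Gadd45g, a stress sensor (difference 1.97, SE 0.36, adjusted p = 0.0226), and the receptor Notch3 (difference 1.53, SE 0.30, adjusted p = 0.0444) fell with EGF alone and were not called in the mix. For Egr1 the difference was not called (difference 0.74, SE 0.90, adjusted p = 0.801). The count of 18 was between 1 and 35 with 1 array left out, the lowest without IDMB+EGF 1. Among the 10 largest differences Mapk6 was called in all 10 fits with 1 array left out, Ccn5 in 9, Orc2 in 8, Cxcl12 in 8, Fosl1 in 6, Gadd45g in 5 and Notch3 in 2. Gpam, which is not among the 10, was called in 4 of these fits. The 4 fits that lost Fosl1 left out EGF 1, EGF 2, IDMB+EGF 1 or IDMB 2 (adjusted p up to 0.118).

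**Figure D4:**
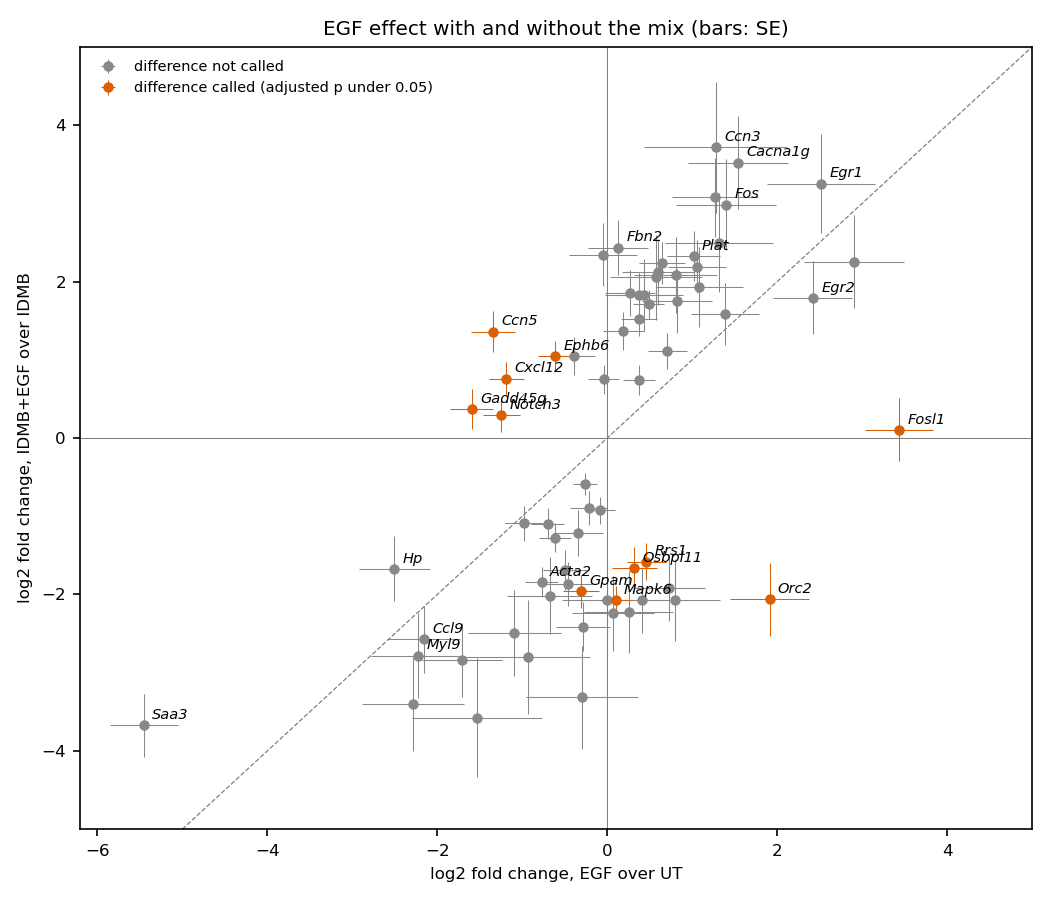
Log2 fold change of EGF over UT (x axis) against that of IDMB+EGF over IDMB (y axis), with SE bars, for named genes called in the mix or for the difference between the 2 effects. Orange points are genes whose difference was called, such as Fosl1 and Orc2 right of and below the dashed line of equal effects and Ccn5 and Cxcl12 above it.

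EGF in the mix moved genes that the mix itself moved, in both directions. The mix response was read from IDMB+TCDD against TCDD cells, arrays that the comparison does not use, so TCDD was present on both sides. Of 466 probes that the mix raised there (6.53% of all), EGF in the mix lowered 32 (6.87%) and raised 24 (5.15%). Of 448 probes that the mix lowered (6.28%), EGF raised 20 (4.46%) and lowered 11 (2.46%), and of the 6220 others it raised 1.5% and lowered 1.46%. These shares were not tested against each other. Both comparisons came from the same fit and used the same variance estimate of each probe. Their calls were therefore not independent, although no array was shared. Raised by the mix and lowered by EGF were Saa3 (log2 3.73 with the mix), Orm2 (2.79), Hp (2.62), Abhd5 (2.44), Igfbp3 (2.16), Pnpla2 (1.31), Apcdd1 (1.28), Gpam (0.72) and Srebf1 (0.61). Lowered by the mix and raised by EGF were Plat (-1.69), Synpo (-1.58), Timp3 (-1.18) and Sod3 (-1.08). Acta2 (-3.50), Myl9 (-3.44), Slc20a1 (-2.16) and Mapk6 (-0.64) were lowered by EGF and by the mix under TCDD, and Cd24a (0.97), Pip (2.07), Ptpn1 (0.95) and Foxo3 (0.95) were raised by both. In cells without TCDD the IDMB mean lay on the same side of the UT mean for 63 of the 72 genes called for both and on the other side for 9, as an untested description. These IDMB arrays had also served to call the genes for EGF in the mix. By that selection genes lowered by EGF tend to have a high IDMB mean and genes raised by EGF a low one. The counts of 63 and 9 are therefore no independent check of the mix response. Mapk6 was one of the 9: IDMB arrays were at 15836, 18317 and 12517, against 5217, 4614 and 5116 on the UT arrays. For Slc20a1 the IDMB mean was log2 -0.17 from the UT mean, against -2.75 for Acta2 and -2.53 for Myl9.

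**Figure D5:**
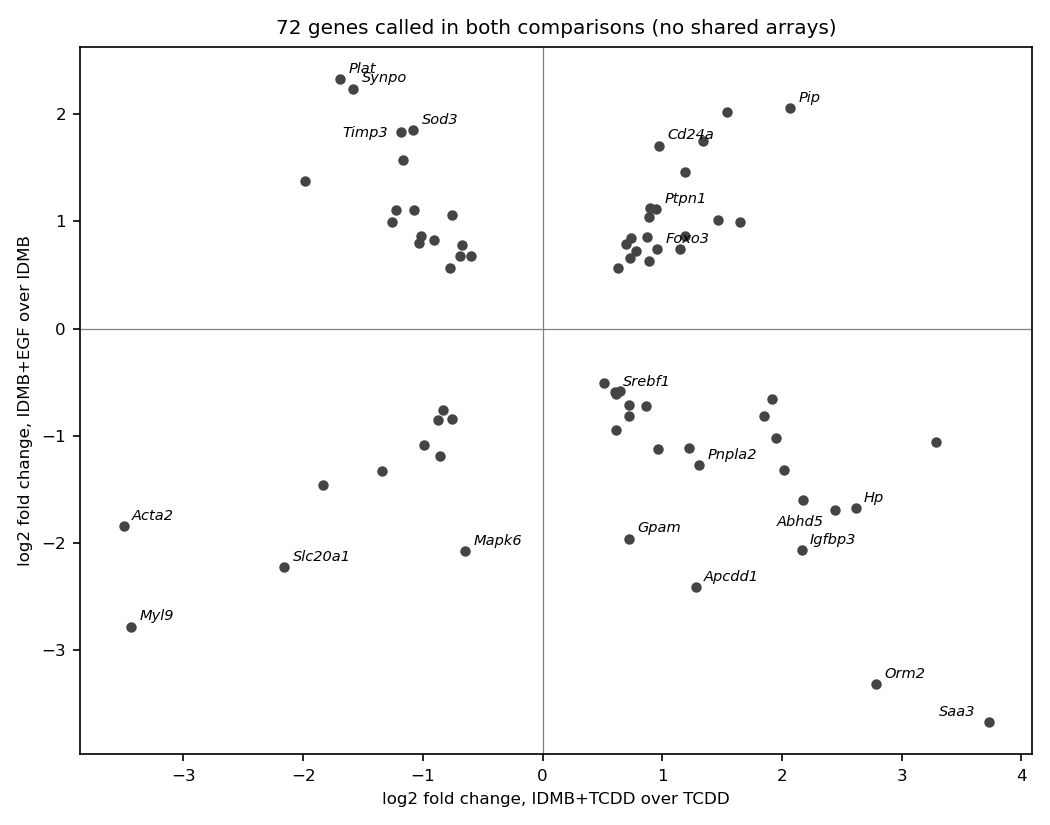
The 72 genes called both for IDMB+TCDD over TCDD (x axis, log2 fold change) and for IDMB+EGF over IDMB (y axis, log2 fold change), which share no arrays. Saa3, Orm2 and Hp lie at the lower right, Plat and Synpo at the upper left, and Acta2 and Myl9 at the lower left.

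With TCDD on both sides, adding EGF to the mix gave 20 calls (0.28%), and the difference between the EGF effects without and with TCDD was called for 70 probes (0.981%), 28 of them with the higher effect without TCDD (0.392%). The 3′ to 5′ Gapdh ratio was 2.13 and 2.86 on the IDMB+EGF+TCDD arrays, against 1.05 and 1.09 on the IDMB+TCDD arrays, so that RNA integrity and EGF cannot be told apart there. With the ratio as covariate limma called 0 probes (410 with an unadjusted p under 0.05) and 1 difference. That difference was the one of Cd24a (adjusted p = 0.0253), and those of Acta2, Saa3, Pea15a and Mme had an adjusted p of 0.283 and that of Fbn2 of 0.546. Of the 137 higher calls 2 were also called higher with TCDD and 94 had the same sign, and of the 134 lower calls 2 were also called lower and 81 had the same sign. Acta2 had 3038 and 3474 on the IDMB+EGF+TCDD arrays, against 2739 and 3929 on the IDMB+TCDD arrays, so that both groups stood where IDMB+EGF stood without TCDD (difference -1.83, SE 0.29, adjusted p = 0.00951). Saa3 had 6431 and 5280 on the IDMB+EGF+TCDD arrays, against 9462 and 12364 on the IDMB+TCDD arrays (log2 -0.89, adjusted p = 0.442), a smaller fall (difference -2.78, SE 0.60, adjusted p = 0.0433). Egr1 had 15107 and 17472 on the IDMB+EGF+TCDD arrays, against 10710 and 1199.8 on the IDMB+TCDD arrays, with the 2 IDMB+TCDD arrays far apart (log2 2.18, adjusted p = 0.218, difference 1.07, SE 0.95, adjusted p = 0.655). Cd24a (difference 2.44, SE 0.27, adjusted p = 0.000753), Pea15a (difference 4.49, SE 0.75, adjusted p = 0.014), Mme (difference 3.21, SE 0.50, adjusted p = 0.00951) and Fbn2 (difference 2.46, SE 0.52, adjusted p = 0.0433) rose with EGF in the mix and were not called with TCDD. The count of 70 lay between 1 and 79 with 1 array left out, the lowest without IDMB+EGF+TCDD 2. The difference was called in all 9 fits with 1 array left out for Cd24a, in 7 for Acta2 and Mme, in 6 for Pea15a, in 2 for Saa3 (adjusted p up to 0.131) and in 1 for Fbn2 (up to 0.156).

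Fibroblast markers differed widely in level. All 10 fibroblast markers had a probe and none was at the floor on all 5 arrays, and their summed intensity was 263680 to 328650 on the IDMB+EGF arrays, against 209300 to 239640 on the IDMB arrays. The collagens Col1a1, Col1a2 and Col3a1 made up most of that sum, from 25408 to 130221 each, while Vim was at 245 to 555. Thy1 had 440 and 374 on the IDMB+EGF arrays, against 1739, 1297 and 1272 on the IDMB arrays (log2 -1.81, adjusted p = 0.128). Dcn had 654 and 625 on the IDMB+EGF arrays, against 722, 1768 and 1154 on the IDMB arrays (log2 -0.83, adjusted p = 0.188). Both lay lower without overlap and without a call, and of the 8 tested fibroblast markers Pdgfrb was the one called. Adipocyte markers with a probe (6 of 8) summed to 5210 to 5248 on the IDMB+EGF arrays, against 4899 to 6799 on the IDMB arrays. Of these, 3 were tested and 0 called. Lep was the largest part of the sum, with 2694 and 3197 on the IDMB+EGF arrays, against 2243, 2841 and 1943 on the IDMB arrays. Adipoq lay lower without overlap, with 542 and 624 on the IDMB+EGF arrays, against 1589.5, 1593 and 1378 on the IDMB arrays. Most markers of other cell types were too dim to be tested. The tested ones were 5 of skeletal muscle (13 with a probe), 2 of macrophages (12) and 1 of epithelium (9). Of endothelium 3 were tested (8 with a probe), and of bone or cartilage 3 (8). Among those tested limma called 0, against 3.8% of all probes, and so few genes cannot show an absence of change. Myf5, Acta1, Myh3, Ptprc, Itgam, Cdh5, Krt19 and Krt14 were at the floor on all 5 arrays. In such bulk samples fewer cells of a type and less RNA per cell cannot be told apart.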

How the data were processed

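The authors deposited signal intensities per probe, on a linear scale per the labels; neither the labels nor the tables name the software that made them. The mean of each array without its outer 2% was about 2501, so the arrays had been scaled before deposit, and they were used as deposited (medians 793.4 to 935.7). Control probes (66 of 12488) were left out of tests. Values under the 20th percentile of all values (143.5) were raised to it and log2 was taken. Probes were tested where the highest of the 8 group means reached the median log2 value (9.73), which left 7134 probes for 5438 genes. A probe that reached it through 1 group alone is high there by selection: 5 calls passed only through IDMB, 1 only through IDMB+EGF, and 0 to 2 tested members of each list through 1 of these groups. Fold changes were fitted with limma 3.58.1 (R 4.3.3) over all 18 arrays with 1 mean per group, a trend in the variance and Benjamini-Hochberg adjustment over the 7134 probes (residual df 10). Adjusted p values in the text are limma's, and fold changes are ratios of group means on the floored log2 scale.

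Gene symbols came from the array annotation: 10833 probes had 1, 396 several and 1193 none. A gene is represented by its brightest probe. Genes named were the markers Egr1, Saa3 and Acta2, anchors and called members of 29 lists, the 15 largest non-overlapping changes in each direction and the 5 largest differences in each direction. Members and lists were chosen with earlier results of these data known. Of 598 listed genes, 504 had a probe and 384 were tested. The labels do not say what separates replicate arrays beyond pooled cultures, so p values measure only the spread between these arrays, whose number limits the precision. The fit was tested on simulated data. Alternatives were other scalings, floors, filters, variance models, a replicate block, RNA integrity as a covariate and leaving out each array.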

Additional observations from a re-analysis of the deposited data

Results flagged for a closer look

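The genes below differed in their EGF effect between 2 conditions by an interaction term in limma (adjusted p under 0.05), and are the 5 largest differences in each direction. With the mix minus without the mix, the EGF effect differed by log2 2.70 for Ccn5, 1.97 for Gadd45g, 1.95 for Cxcl12, 1.66 for Ephb6 and 1.53 for Notch3, and by −3.97 for Orc2, −3.33 for Fosl1, −2.17 for Mapk6, −2.04 for Rrs1 and −1.98 for Osbpl11. With the floor at the 40th percentile the difference of Orc2 was -0.84 and not called (adjusted p = 0.367). Among the fits that kept at least 2 arrays in each group, the call of Osbpl11 was lost without any 1 of the UT arrays or without IDMB 2. In these fits that of Ephb6 was lost without UT 2 or IDMB 2. Some fits that left 1 array in the EGF or IDMB+EGF group also lost the calls of Osbpl11, Ephb6 and Rrs1. With 1 array left out the difference was log2 -2.28 to -1.69 for Osbpl11, 1.46 to 1.86 for Ephb6 and -2.15 to -1.93 for Rrs1. A second probe for Ephb6 was not called for EGF in the mix.

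Within the mix, the EGF effect without TCDD minus that with TCDD was log2 4.49 for Pea15a, 3.24 for Snapc3, 3.21 for Mme, 2.46 for Fbn2 and 2.44 for Cd24a, and −3.73 for Myl9, −3.71 for Slc20a1, −3.22 for Gpr137b-ps, −2.91 for Gja1 and −2.89 for Ccl9. For Ccl9 the arrays without TCDD had 8624 and 8610.5 on the IDMB+EGF arrays, against 31144, 79990 and 53971 on the IDMB arrays, and those with TCDD had 2881 and 1570.5 on the IDMB+EGF+TCDD arrays, against 2339 and 1238 on the IDMB+TCDD arrays. Myl9 was under the floor on both IDMB+EGF arrays and on both IDMB+TCDD arrays, so its difference depends on the floor. With the floor at the 40th percentile the differences of Snapc3 (log2 0.97), Myl9 (-1.06) and Slc20a1 (-1.56) were not called, and with the Gapdh ratio as covariate only that of Cd24a was (adjusted p = 0.0253). The calls of Fbn2, Myl9, Slc20a1, Gpr137b-ps and Gja1 were lost without IDMB 1 and also without IDMB 2. Those of Snapc3 and Ccl9 were lost without IDMB 2 and also without IDMB 3. These were not the only fits that lost a call, but the others left 1 array in a group. Over all 9 fits the difference was log2 2.17 to 2.96 for Fbn2 and 2.72 to 3.72 for Snapc3. It was -4.69 to -2.78 for Myl9, -4.38 to -3.05 for Slc20a1 and -3.78 to -2.79 for Gpr137b-ps. For Gja1 it was -3.57 to -2.25 and for Ccl9 -3.35 to -2.43. Groups of 2 and 3 arrays are too small to test 1 array against the rest.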

How the results depend on the processing

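Counts of calls moved more than directions did, although the directions are those of probes selected on the same arrays. Leaving out each array in turn gave 30 to 259 calls for EGF in the mix (271 with all arrays), 1 to 35 for the difference from EGF alone (18), 14 to 508 for EGF alone (440), 0 to 16 for EGF in the mix with TCDD (20), 1 to 79 for the difference made by TCDD (70) and 306 to 556 for the mix in TCDD (914). Where the count was 0, limma's unadjusted p was under 0.05 for 532 probes. With only the arrays of the groups compared, limma called 72 for EGF in the mix, 0 for the difference from EGF alone (763 with an unadjusted p under 0.05), 232 for EGF alone, 0 in the mix with TCDD (999) and 2 for the difference made by TCDD. Replicate numbers were not taken to pair arrays, since same-numbered IDMB+EGF and IDMB arrays deviated together with correlations of 0.075 and 0.055 and the labels tie no number to a shared culture or day. For IDMB+EGF+TCDD and IDMB+TCDD the correlation was 0.199 for both numbers, which with 2 arrays a group are 1 value. A replicate block gave 441, 32, 40 and 162 calls for EGF in the mix, the difference from EGF alone, EGF with TCDD and the difference made by TCDD. Scaling to a common median gave 37 calls with TCDD (11 higher, 26 lower), 38 for the difference made by TCDD, a split of 5 to 10 for the difference from EGF alone and of 575 to 247 for the mix in TCDD. A floor at the 40th percentile gave 32 for the difference from EGF alone, no filter 184 for EGF alone and 27 for the difference made by TCDD, no variance trend 11 and 33 for the 2 differences, and the Gapdh ratio as covariate 189 for EGF alone, 0 with TCDD (410) and 1 for the difference made by TCDD. The causes were not tested. The mitosis list had 31 calls for EGF alone, 1 with no filter and 3 with the Gapdh covariate. Among named genes called for EGF in the mix, 22 of 64 were called in every alternative other than leaving out an array that tested them, 12 in every fit with 1 array left out, and 0 changed sign.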

Other observations

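A few called genes outside the lists were picked after their values were seen and are given as single values. Pum3, a nucleolar RNA-binding protein, had 2778 and 2899 on the IDMB+EGF arrays, against 13696, 12906 and 8516 on the IDMB arrays (log2 -2.01, adjusted p = 0.000133), and the UT arrays were at 3709, 2657 and 2414. Rrs1, a factor of the large ribosomal subunit named by the rule for the largest differences, had 812 and 940.5 on the IDMB+EGF arrays, against 2271, 2695 and 2916 on the IDMB arrays (log2 -1.58, adjusted p = 0.00173), and the UT arrays were at 714, 876 and 930.2. In both genes the IDMB+EGF arrays lay in or near the range of the UT arrays and the IDMB arrays stood above. Rrp7a, a ribosomal RNA processing factor, went the other way, with 5839 and 6037 on the IDMB+EGF arrays, against 3296, 2549 and 4182 on the IDMB arrays (log2 0.86, adjusted p = 0.0399). Hspa9, the mitochondrial Hsp70, had 8534 and 7564 on the IDMB+EGF arrays, against 15121, 15037 and 16452 on the IDMB arrays (log2 -0.95, adjusted p = 0.00581), without overlap, and its UT arrays were at 13746, 12380 and 11631.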
